A study of Mus musculus with 6 samples.

Results

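The genes described here encode the Wnt ligands, their cell-surface receptors, the soluble Wnt antagonists and the pathway target *Axin2*, measured in ECFP+ osteoblasts (OBs) from BMP-2-induced ectopic bone. They were taken by gene symbol and not by their values: 19 *Wnt* ligands, 10 *Fzd* receptors, the co-receptors *Lrp4*, *Lrp5*, *Lrp6*, *Ror1* and *Ror2*, the antagonists *Sfrp1*, *Sfrp2*, *Sfrp4*, *Sfrp5*, *Dkk1*, *Dkk2*, *Dkk3*, *Dkk4* and *Wif1*, and *Axin2*. This gave 44 of the 23284 genes listed. The series holds 3 samples of day 10 and 3 samples of day 14 after implantation, which the titles name as biological replicates. All samples came from male *Col2.3*-ECFP mice of 12 to 16 weeks, in which a type I collagen promoter drives a cyan fluorescent protein, so that the sort followed promoter activity and not OB identity as such. Every implant was a collagen sponge with 2.5 μg of rhBMP-2 placed under the skin of the back, and there was no group without BMP-2. CD45+ and dead cells were gated out on both days, and the cells were freed with 1 collagenase digestion on day 10 but 2 on day 14. Day and digestion cannot be told apart. Whether a sample pooled several mice is not given in the sources used here.

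Wnt proteins are secreted lipid-modified ligands that bind Frizzled (Fzd) receptors. Together with the co-receptors Lrp5 and Lrp6 they stabilise β-catenin, which acts with TCF and LEF factors on target genes, whereas Ror1 and Ror2 take part in β-catenin-independent signalling, for which Wnt5a is the classical ligand. Sfrp proteins and Wif1 bind Wnt ligands outside the cell, and Dkk1 blocks Lrp5 and Lrp6. In bone, β-catenin signalling promotes the OB fate and bone formation, and its soluble inhibitors are regulators of bone mass.

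FPKM counts the fragments of a gene relative to its exon length and to the mapped fragments of the library, so levels of different genes can be set side by side. The number of mapped reads, estimated from the size of the steps between low FPKM values, was between 4527428 and 7748275 per sample, and a count of 3 reads over 1000 bases is worth 0.387 to 0.663 FPKM (counting error only). The sort label was driven by a type I collagen promoter, and *Col1a1* was between 14151 and 34157 FPKM. The osteocyte gene *Sost*, another Wnt antagonist, stayed between 0.118 and 1.24 FPKM, and *Fgf23* was at most 0.681 FPKM. Other osteocyte markers were higher, with *Dmp1* at 36.1 to 949 FPKM and *Pdpn* at 62.6 to 158 FPKM. *Phex* ranged from 1.49 to 30.0 FPKM and *Mepe* from 2.22 to 17.9 FPKM. Replicate 2 of day 14 stood apart from the other day 14 samples. The summed level of 14 chondrocyte markers was 2492 FPKM in this sample, against 235 and 174 FPKM in replicates 1 and 3 of day 14 and 791 to 1631 FPKM on day 10. The sum of 11 myeloid markers ranged from 21.3 FPKM in replicate 2 of day 14 to 710 FPKM in replicate 3 of that day, with 39.9 to 174 FPKM on day 10, and the sum of 8 fibroblast markers ran from 90.3 to 178 FPKM on day 10 and from 125 to 460 FPKM on day 14. Endothelial markers were low in all samples, with a sum of at most 11.0 FPKM over 10 genes. Because whole sorted populations were sequenced, fewer cells of a type and less RNA per cell cannot be told apart. The free-text descriptions give day 15 and day 16 for replicates 2 and 3 of day 14, whereas the titles place both on day 14, and the titles were followed.

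On day 14, the antagonist *Dkk1* was lower and *Dkk3*, the receptor *Fzd1* and the co-receptors *Ror1* and *Lrp6* were higher than on day 10 in every sample, without overlap between the days. The ligand *Wnt9a* had a 2.07-fold higher mean on day 14, with overlapping samples. Of the 44 genes, 38 had a mean above 0.1 FPKM and were tested, and the other 6 never exceeded 0.258 FPKM. No gene of the group passed the threshold of an adjusted p under 0.05 (0 of 38 tested, limma with Benjamini-Hochberg adjustment over all 19526 genes), and the smallest adjusted p was 0.305. Over all genes tested, 0.0154% passed it. At an unadjusted p under 0.05 from limma, 4 of the 38 genes were higher on day 14 (10.5%, against 5.6% of all genes tested) and 1 was lower (2.63%, against 4.4% of all genes). The days did not overlap, with day 14 the higher, in 4 of the 38 genes (10.5%, against 7.59% of all genes) and, with day 14 the lower, in 1 (2.63%, against 6.67%). Separated days were therefore not particular to this group. Genes with higher means on this log scale made up 22 of the 38 (57.9%, against 46.5% of all genes tested), and the median log2 fold change was 0.20, against −0.04 over all genes tested. By role, the mean was higher on day 14 for 6 of 15 ligands, 8 of 9 Frizzled receptors, 3 of 5 co-receptors, 3 of 3 *Sfrp* genes and 2 of 4 *Dkk* genes. The *Sfrp* relative *Frzb*, which the choice by symbol left out, was lower on day 14 (log2 fold change −2.51).

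**Figure D1:**
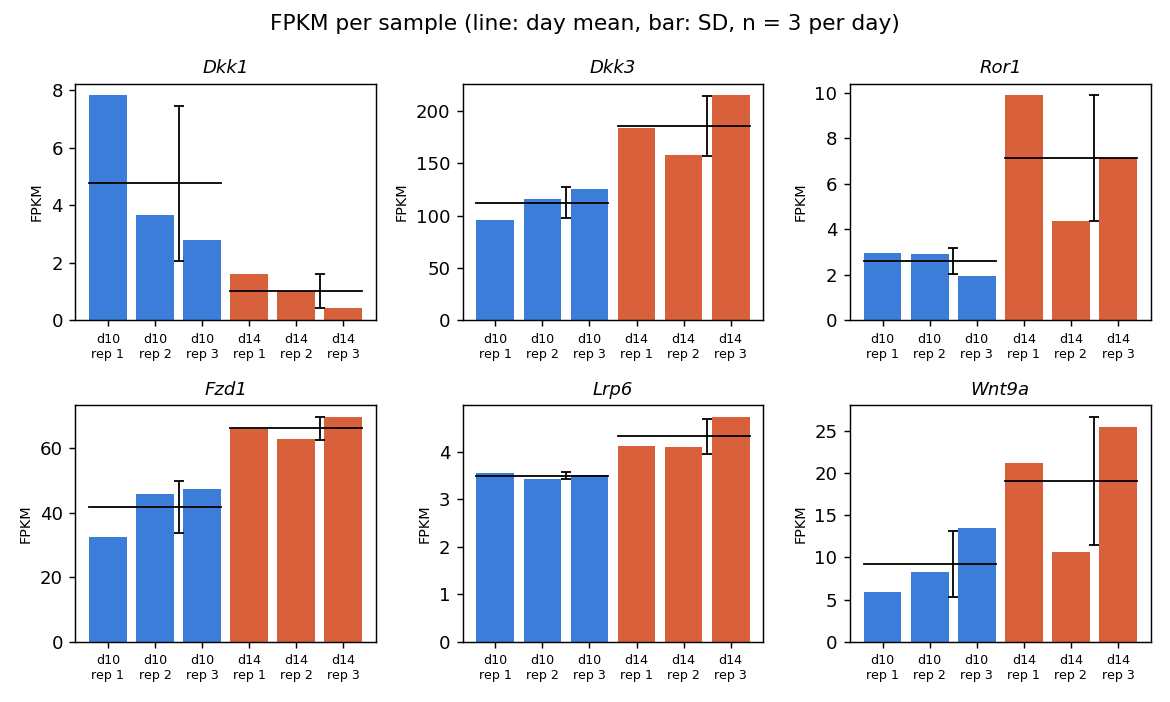
FPKM of *Dkk1*, *Dkk3*, *Ror1*, *Fzd1*, *Lrp6* and *Wnt9a* in each of the 3 day 10 samples (blue) and 3 day 14 samples (orange), with the day mean as a line and the SD as an error bar. The days do not overlap in the first 5 genes, and in *Wnt9a* replicate 2 of day 14 (10.7 FPKM) lies below replicate 3 of day 10 (13.5 FPKM).

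Soluble antagonists were the most abundant genes of the group, as seen in the plot of all expressed members by sample. *Sfrp2* averaged 293 ± 165 FPKM (SD, n = 3) on day 10 and 366 ± 101 FPKM (SD, n = 3) on day 14 and ranked 173 by its mean among all 23284 genes. *Dkk3* ranked 407, *Sfrp1* 737, *Wif1* 850 and *Sfrp4* 1175, and among the receptors and ligands *Fzd1* ranked 1115 and *Wnt9a* 3610. The summed level of the group's antagonists was 431, 624 and 782 FPKM on day 10 and 645, 759 and 876 FPKM on day 14. This sum takes in the *Sfrp*, *Dkk* and *Wif1* genes and not *Frzb*, *Notum* and *Sost*, antagonists outside the group. The summed level of all 19 ligands was 50.6, 49.0 and 58.4 FPKM on day 10 and 50.4, 67.4 and 78.4 FPKM on day 14. Both sums overlapped between the days, and in each sample the antagonist sum was the larger. In all, 26 genes of the group had a mean above 1 FPKM over the 6 samples, and 32 were above 0 in every sample.

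**Figure D2:**
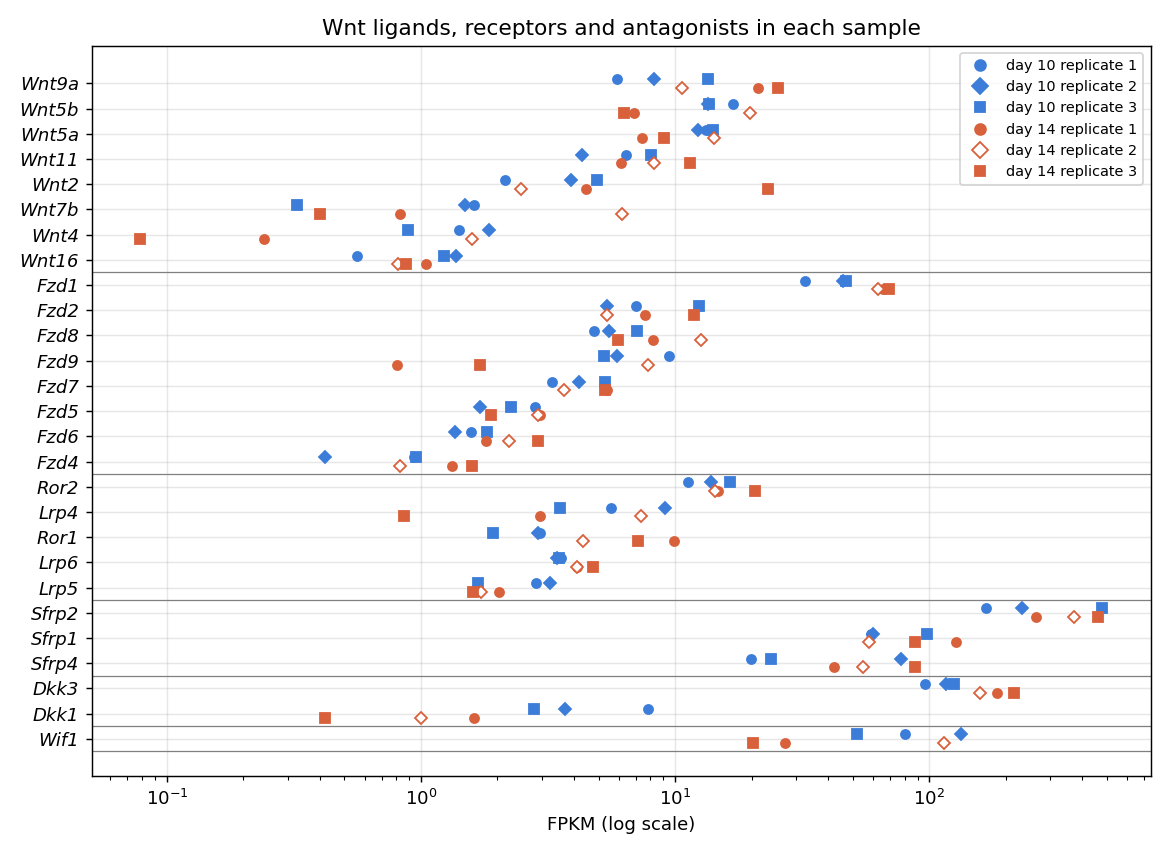
FPKM on a log axis for the 27 genes of the group with a mean of at least 1 FPKM on either day, ordered by role and level, with day 10 in blue, day 14 in orange and replicate 2 of day 14 as an open symbol. The *Sfrp* genes, *Dkk3*, *Wif1* and *Fzd1* lie furthest to the right, and the open symbol falls among the day 10 samples in *Wnt4*, *Fzd9*, *Lrp4* and *Wif1*.

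Among the ligands, *Wnt5b*, *Wnt5a*, *Wnt9a*, *Wnt11* and *Wnt2* together made up 82.1% to 96.1% of the summed ligand FPKM of a sample. *Wnt9a*, a ligand with known roles in joint and skeletal development (mm10, chr11:59306928-59333552), measured 5.90, 8.23 and 13.5 FPKM on day 10 and 21.2, 10.7 and 25.5 FPKM on day 14. Replicates 1 and 3 of day 14 were above all day 10 samples and replicate 2 was inside their range. Its log2 fold change was 1.03 (SE 0.38, 95% interval 0.16 to 1.91, limma adjusted p = 0.430). Of the summed ligand level, *Wnt9a* made up 11.7%, 16.8% and 23.2% on day 10 and 42.0%, 15.8% and 32.5% on day 14.

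*Wnt5a*, the classical β-catenin-independent ligand, measured 13.3, 12.3 and 14.1 FPKM on day 10 and 7.44, 14.2 and 9.03 FPKM on day 14 (log2 fold change −0.42, limma adjusted p = 0.622). Its relative *Wnt5b*, known from growth-plate cartilage, measured 16.9, 13.4 and 13.6 FPKM on day 10 and 6.87, 19.7 and 6.28 FPKM on day 14 (log2 fold change −0.61, limma adjusted p = 0.677). *Wnt4* measured 1.41, 1.86 and 0.887 FPKM on day 10 and 0.242, 1.58 and 0.0782 FPKM on day 14 (log2 fold change −1.61, limma adjusted p = 0.563). In these 3 ligands, replicates 1 and 3 of day 14 lay below every day 10 sample, and replicate 2 lay within the day 10 range or above it. *Wnt7b*, a ligand that promotes OB differentiation, reached 6.20 FPKM in replicate 2 of day 14, against 0.829 and 0.402 FPKM in replicates 1 and 3 and 1.62, 1.49 and 0.324 FPKM on day 10.

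*Wnt2* was highest in replicate 3 of day 14, at 23.1 FPKM, against 4.47 and 2.47 FPKM in replicates 1 and 2 and 2.14, 3.90 and 4.91 FPKM on day 10. This sample also had the highest sums of the fibroblast markers (460 FPKM) and of the myeloid markers (710 FPKM), and their part in the level of *Wnt2* was not tested. *Wnt11* measured 6.40, 4.29 and 8.06 FPKM on day 10 and 6.10, 8.29 and 11.5 FPKM on day 14, with overlapping days (log2 fold change 0.46, 95% interval −0.24 to 1.15). *Wnt16*, an OB-derived ligand with a known role in cortical bone, measured 0.560, 1.37 and 1.23 FPKM on day 10 and 1.05, 0.809 and 0.873 FPKM on day 14. The day 14 values of *Wnt16* all lay inside the day 10 range.

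The other 11 ligands had means under 1 FPKM on both days, and none of their values exceeded 1.33 FPKM. The highest of these was *Wnt10b*, a ligand that favours the OB over the adipocyte fate, at 0.909, 0.900 and 0.890 FPKM on day 10 and 0.325, 1.33 and 0.560 FPKM on day 14. *Wnt1* reached 1.01 FPKM in replicate 2 of day 14 and was at most 0.472 FPKM in the other samples. *Wnt3a*, the ligand most used to activate β-catenin in culture, was at most 0.241 FPKM, which corresponds to about 3.0 estimated reads. *Wnt6*, *Wnt8a*, *Wnt8b* and *Wnt9b* had a mean at or below 0.1 FPKM and were not tested.

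**Figure D3:**
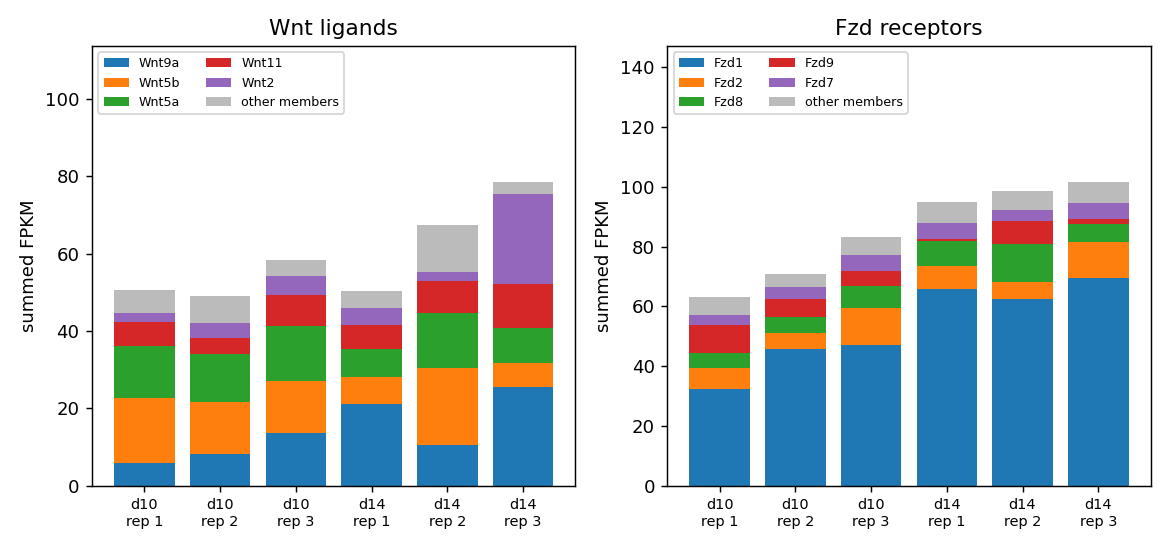
Summed FPKM of the 19 *Wnt* ligands (left) and the 10 *Fzd* receptors (right) in each sample, stacked by the 5 most abundant members of each family with all others in grey. The *Fzd* sum is at least 95.1 FPKM on day 14 and at most 83.2 FPKM on day 10, and *Wnt2* is largest in replicate 3 of day 14. *Fzd1* is the largest part of the *Fzd* sum in every sample.

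Of the Frizzled receptors, *Fzd1* (chr5:4753839-4758035) was the most abundant. It measured 32.5, 45.6 and 47.2 FPKM on day 10 and 65.9, 62.7 and 69.7 FPKM on day 14. All day 14 samples were above all day 10 samples, with a log2 fold change of 0.68 (95% interval 0.27 to 1.08, limma adjusted p = 0.314). The exact permutation test (two-sided) gave p = 0.1, below which a design of 3 against 3 cannot go. *Fzd1* made up between 51.5% and 69.4% of the summed Frizzled level, and that sum was 63.1, 70.7 and 83.2 FPKM on day 10 and 95.1, 98.8 and 101 FPKM on day 14. The sums did not overlap between the days, but *Fzd1* was the only Frizzled gene whose own days were separated.

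*Fzd9*, a receptor required in OBs for normal bone formation, measured 9.44, 5.92 and 5.26 FPKM on day 10 and 0.805, 7.79 and 1.71 FPKM on day 14 (log2 fold change −1.52, 95% interval −3.11 to 0.06, limma adjusted p = 0.517). Replicates 1 and 3 of day 14 were below every day 10 sample and replicate 2 was not. *Fzd8* measured 4.81, 5.50 and 7.11 FPKM on day 10 and 8.22, 12.7 and 5.95 FPKM on day 14, with overlap through replicate 3 of day 14. *Fzd2* had the same mean on both days within its spread, at 8.29 ± 3.66 and 8.30 ± 3.28 FPKM (SD, n = 3), with a 95% interval of the log2 fold change from −0.83 to 0.86. *Fzd7*, *Fzd6*, *Fzd5* and *Fzd4* had day means between 0.772 and 4.80 FPKM with log2 fold changes from 0.17 to 0.65, and their days overlapped. *Fzd3* stayed between 0.391 and 0.924 FPKM, and *Fzd10* was at most 0.196 FPKM.

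*Ror1*, a receptor tyrosine kinase for Wnt5a (chr4:100095791-100444765), had the largest fold difference among the 4 genes that were higher on day 14 without overlap. It measured 2.94, 2.89 and 1.92 FPKM on day 10 and 9.90, 4.35 and 7.13 FPKM on day 14, a log2 fold change of 1.38 (SE 0.34, 95% interval 0.61 to 2.15, limma adjusted p = 0.305). All day 14 samples were above all day 10 samples. Its paralogue *Ror2* was the more abundant of the pair, at 11.3, 13.9 and 16.4 FPKM on day 10 and 14.8, 14.4 and 20.6 FPKM on day 14, with overlapping days (log2 fold change 0.26, 95% interval −0.23 to 0.74). The level of *Ror2* over that of *Ror1* was 3.84, 4.80 and 8.54 on day 10 and 1.50, 3.32 and 2.90 on day 14, without overlap.

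The β-catenin co-receptor *Lrp6* (chr6:134446476-134566965) measured 3.56, 3.43 and 3.50 FPKM on day 10 and 4.13, 4.10 and 4.74 FPKM on day 14. The days did not overlap, the difference was small (log2 fold change 0.29, 95% interval −0.19 to 0.78) and the unadjusted p from limma was 0.198. *Lrp5*, the co-receptor whose human mutations alter bone mass, measured 2.84, 3.22 and 1.68 FPKM on day 10 and 2.03, 1.73 and 1.60 FPKM on day 14. The days of *Lrp5* overlapped through replicate 3 of day 10. *Lrp4*, which anchors the antagonist sclerostin, measured 5.61, 9.10 and 3.51 FPKM on day 10 and 2.95, 7.34 and 0.858 FPKM on day 14 (log2 fold change −1.04, limma adjusted p = 0.677). Only replicates 1 and 3 of day 14 lay below the day 10 range in *Lrp4*.

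*Dkk1*, the secreted blocker of Lrp5 and Lrp6 (chr19:30545863-30549665), was the one gene of the group lower on day 14 without overlap of the samples. It measured 7.85, 3.67 and 2.78 FPKM on day 10 and 1.62, 0.997 and 0.418 FPKM on day 14. The day 14 values rest on 6.5 to 16.1 estimated reads, against 44.9 to 84.7 on day 10. The log2 fold change was −2.16 (SE 0.535, 95% interval −3.38 to −0.93, limma adjusted p = 0.305), and the exact permutation test gave p = 0.1. *Dkk3*, a divergent family member that does not act on Lrp5 and Lrp6 in the way Dkk1 does (chr7:112116017-112159057), measured 95.9, 116 and 125 FPKM on day 10 and 184, 158 and 216 FPKM on day 14. The days did not overlap, and the log2 fold change was 0.72 (SE 0.18, 95% interval 0.31 to 1.14, limma adjusted p = 0.305). The level of *Dkk3* was 12.2, 31.6 and 44.9 times that of *Dkk1* on day 10 and 114, 159 and 515 times on day 14.

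*Dkk2* measured 0.350, 0.467 and 0.257 FPKM on day 10 and 0.438, 0.674 and 0.526 FPKM on day 14, on at most 13.9 estimated reads. *Dkk4* had 0.553 and 0.164 FPKM in the first pair of day 10 replicates and was listed at 0 in the other 4 samples. Its highest value corresponds to 3.0 estimated reads, so that a difference was not detectable at this depth.

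The promoters of the genes with separated days are shown for those in the RefSeq table (GRCm38.p6), which held a window for 29 of the 44 genes, with *Axin2* beside them as the usual β-catenin target. Each line gives the 250 bases before the RefSeq start, 5′ to 3′ on the gene's strand. Capitals mark matches on either strand to the TCF/LEF letters CTTTGA or to the RUNX letters TGTGGT, and the SMAD letters GGCGCC and the AP-1 letters TGANTCA were searched as well. No match overlapped another in these windows.
Dkk1 (chr19:30549497-30549746, minus strand): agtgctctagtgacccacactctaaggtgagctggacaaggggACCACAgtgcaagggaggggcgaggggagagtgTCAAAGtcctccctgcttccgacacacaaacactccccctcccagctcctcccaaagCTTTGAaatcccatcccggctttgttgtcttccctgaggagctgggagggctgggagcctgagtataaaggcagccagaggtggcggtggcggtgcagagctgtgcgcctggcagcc
Ror1 (chr4:100095541-100095790, plus strand): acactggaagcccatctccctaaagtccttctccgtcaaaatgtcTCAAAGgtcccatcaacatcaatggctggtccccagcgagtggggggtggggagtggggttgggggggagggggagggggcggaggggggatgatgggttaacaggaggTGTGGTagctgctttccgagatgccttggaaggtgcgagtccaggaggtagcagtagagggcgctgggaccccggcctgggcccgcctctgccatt
Fzd1 (chr5:4758217-4758466, minus strand): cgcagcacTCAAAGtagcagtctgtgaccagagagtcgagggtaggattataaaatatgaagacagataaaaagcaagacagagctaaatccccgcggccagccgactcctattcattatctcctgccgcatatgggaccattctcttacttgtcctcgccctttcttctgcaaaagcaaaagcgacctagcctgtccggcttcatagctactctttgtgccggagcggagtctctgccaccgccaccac
Axin2 (chr11:108920099-108920348, plus strand): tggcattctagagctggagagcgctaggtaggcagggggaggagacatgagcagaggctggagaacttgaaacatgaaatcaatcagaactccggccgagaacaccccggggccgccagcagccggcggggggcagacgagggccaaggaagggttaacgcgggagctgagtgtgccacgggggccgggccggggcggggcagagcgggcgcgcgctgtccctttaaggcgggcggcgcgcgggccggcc

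The *Dkk1* window held 2 matches to the TCF/LEF letters and the *Ror1* and *Fzd1* windows 1 each, while the *Axin2* window held none of the 4 motifs. Among all 32851 windows of this length, 13.8% held the TCF/LEF letters, as did 5 of the 32 windows of the group (some genes have several starts). The RUNX letters were in 3 of the 32 windows of the group, those of *Dkk1* and *Ror1* among them, and in 14.0% of all windows. The SMAD letters were in 10 of the 32 windows of the group and 9.59% of all windows. The AP-1 letters were in 2 of the 32 and 6.75% of all windows. The SMAD letters are only G and C, and the GC content of the group's windows was not compared with that of all windows. The *Dkk1* gene as annotated in GENCODE starts further upstream, so that 169 bases of its window, with 1 TCF/LEF match and part of the other, lie inside the annotated gene. A match describes letters only. Of the 3 genes shown with a TCF/LEF match, *Dkk1* had the lower and *Ror1* and *Fzd1* the higher mean on day 14. The other TCF/LEF matches of the group were in a window of *Wnt11* (log2 fold change 0.46) and a window of *Wnt5b* (−0.61).

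*Sfrp2*, a secreted Frizzled-related protein, measured 167, 232 and 480 FPKM on day 10 and 262, 372 and 463 FPKM on day 14. The days overlapped (log2 fold change 0.43, 95% interval −0.45 to 1.30), and *Sfrp2* made up between 60.6% and 79.7% of the summed *Sfrp* level in every sample. *Sfrp1*, a known inhibitor of bone formation, measured 59.0, 60.3 and 98.3 FPKM on day 10 and 128, 57.7 and 87.5 FPKM on day 14 (log2 fold change 0.29, 95% interval −0.42 to 1.00). *Sfrp4*, whose loss alters cortical bone, measured 19.9, 77.2 and 23.8 FPKM on day 10 and 42.3, 55.0 and 87.8 FPKM on day 14 (log2 fold change 0.82, 95% interval −0.30 to 1.95). None of these 3 genes separated the days, and *Sfrp5* was listed at 0 on day 10 and was at most 0.258 FPKM on day 14.

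*Wif1*, which binds Wnt ligands directly (chr10:121033960-121100650), measured 80.5, 134 and 51.9 FPKM on day 10 and 27.1, 114 and 20.3 FPKM on day 14 (log2 fold change −1.05, 95% interval −2.45 to 0.35, limma adjusted p = 0.625). Replicates 1 and 3 of day 14 were below every day 10 sample, and replicate 2 lay between the higher day 10 samples.

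*Axin2*, a negative-feedback target of β-catenin, was barely detected, at 0.353, 0.269 and 0.0950 FPKM on day 10 and 0.270, 0.125 and 0.0698 FPKM on day 14. These values rest on 2.0 to 7.0 estimated reads, and a difference between the days was not detectable at this depth.

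**Figure D4:**
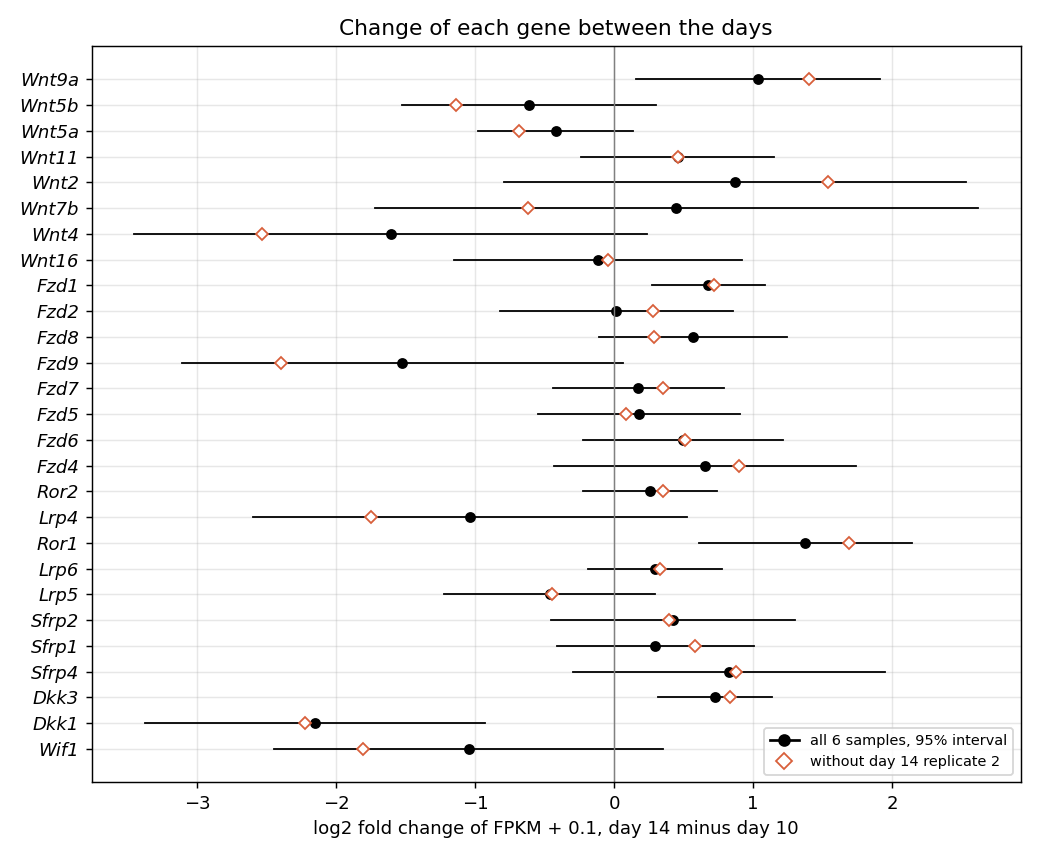
Log2 fold change of FPKM + 0.1 (day 14 minus day 10) for the 27 expressed genes, as black points with 95% intervals from limma over all 6 samples and as open orange diamonds without replicate 2 of day 14. The intervals of *Wnt9a*, *Fzd1*, *Ror1*, *Dkk3* and *Dkk1* do not include 0, and the diamonds of *Wnt5b*, *Wnt4*, *Fzd9*, *Lrp4* and *Wif1* lie further to the left than the points.

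The group looked different when replicate 2 of day 14 was left out. Without it, 7 of the 38 genes were lower on day 14 at an unadjusted p under 0.05 from limma (18.4%, against 5.92% of all genes tested) and 4 were higher (10.5%, against 6.91%), and none had an adjusted p under 0.05. The 7 lower genes were *Wnt5b*, *Fzd9*, *Wif1*, *Wnt4*, *Wnt5a*, *Dkk1* and *Lrp4*, and of these *Dkk1* alone was lower at that p with all 6 samples. The log2 fold change went from −0.61 to −1.14 for *Wnt5b*, from −1.52 to −2.40 for *Fzd9*, from −1.05 to −1.81 for *Wif1*, from −1.61 to −2.53 for *Wnt4* and from −1.04 to −1.75 for *Lrp4*. The log2 fold changes of *Ror1* (1.69), *Dkk3* (0.84), *Fzd1* (0.72) and *Wnt9a* (1.41) were at least as large without this sample, and that of *Dkk1* was −2.23.

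*Wnt5b*, *Fzd9*, *Wif1*, *Wnt4*, *Wnt5a* and *Lrp4* were picked out by leaving out replicate 2 of day 14. That this sample stood above replicates 1 and 3 in them follows from this choice. Replicate 2 of day 14 also stood above replicates 1 and 3 in many chondrocyte and OB markers. The cartilage collagen *Col2a1* measured 373, 321 and 189 FPKM on day 10 and 12.1, 688 and 8.75 FPKM on day 14. The OB transcription factor *Dlx5* measured 9.88, 8.19 and 7.56 FPKM on day 10 and 0.979, 9.84 and 1.01 FPKM on day 14, and the phosphatase *Alpl* measured 1129, 1055 and 809 FPKM on day 10 and 273, 1300 and 186 FPKM on day 14. In these 3 genes, replicates 1 and 3 of day 14 were below day 10 and replicate 2 was not, as in 11 of the 14 chondrocyte and 7 of the 12 OB markers in all. The share of all genes with this pattern was not counted. Of the other OB markers, *Sp7* was below day 10 in all 3 day 14 samples, and in *Bglap*, *Bglap2*, *Sparc* and *Spp1* at least 1 of replicates 1 and 3 was not below day 10. Of the 14 chondrocyte markers, 12 were above 0 in all samples. The part of cartilage cells in the levels of the Wnt genes was not tested. *Dkk1* differed from these genes in that its value in replicate 2 of day 14 lay below all day 10 samples.

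**Figure D5:**
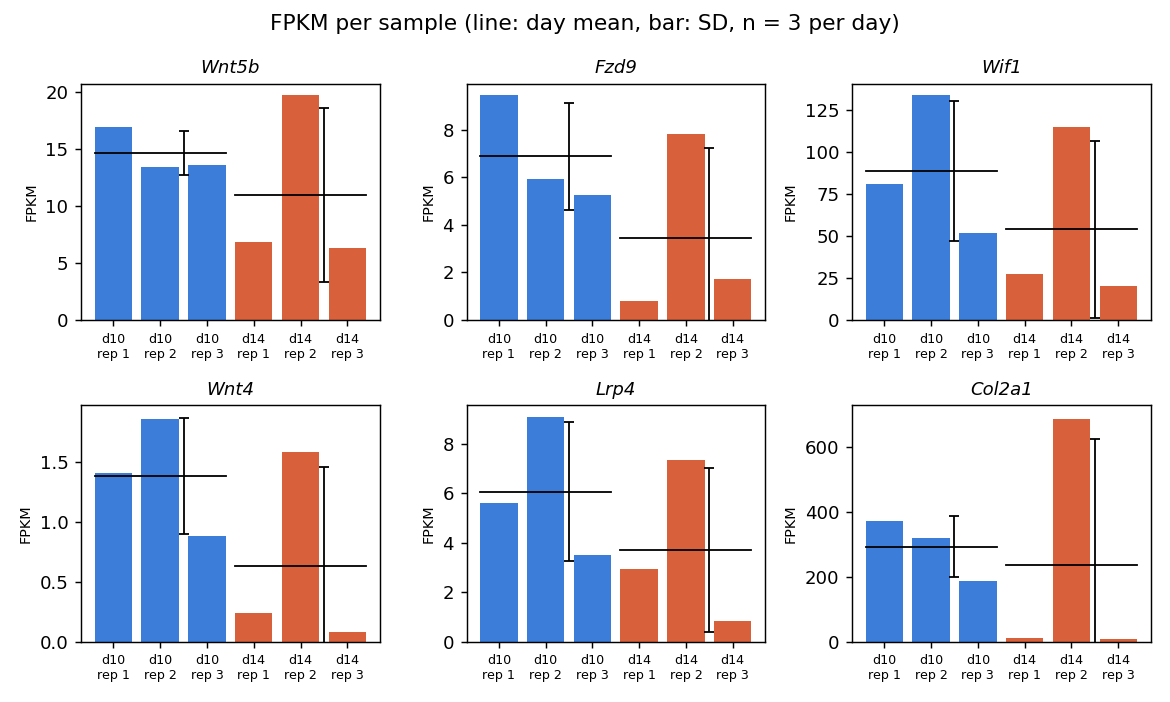
FPKM of *Wnt5b*, *Fzd9*, *Wif1*, *Wnt4* and *Lrp4* and of the cartilage gene *Col2a1* in each sample, with the day mean as a line and the SD as an error bar (n = 3 per day). An SD bar that would pass below 0 is cut there. In all 6 genes, replicate 2 of day 14 is the highest day 14 sample and replicates 1 and 3 lie below the day 10 samples. The Wnt genes shown are among those picked out by leaving out replicate 2 of day 14.

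Other genes of the pathway were counted by list. Of 32 tested genes for Wnt secretion and extracellular control outside the group, none passed an adjusted p under 0.05 from limma, 4 were higher and 4 lower on day 14 at an unadjusted p under 0.05, and the median log2 fold change was 0.02. Over all genes tested the shares were 5.6% and 4.4% and the median −0.04. Without replicate 2 of day 14, 2 genes of this list were higher and 5 lower, against 6.91% and 5.92% of all genes tested. *Notum*, a secreted enzyme that inactivates Wnt ligands, measured 22.0, 39.4 and 15.7 FPKM on day 10 and 2.29, 11.0 and 1.87 FPKM on day 14 (log2 fold change −2.68, limma adjusted p = 0.305). *Frzb*, the Sfrp relative of cartilage, measured 93.2, 60.1 and 49.3 FPKM on day 10 and 7.66, 39.6 and 4.80 FPKM on day 14 (log2 fold change −2.51, limma adjusted p = 0.319). In both antagonists, as in *Dkk1*, the highest day 14 sample lay below the lowest of day 10. In *Notum* and *Frzb*, unlike *Dkk1*, that sample was replicate 2 of day 14. Without replicate 2 of day 14, their log2 fold changes were −3.46 and −3.40.

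On the other side of that list, *Igfbp4*, an IGF-binding protein that can also inhibit Wnt receptors, measured 266, 274 and 450 FPKM on day 10 and 826, 730 and 717 FPKM on day 14 (log2 fold change 1.24, limma adjusted p = 0.292). *Porcn*, the enzyme that adds the lipid to Wnt ligands, measured 17.6, 25.8 and 28.1 FPKM on day 10 and 34.6, 43.8 and 31.0 FPKM on day 14. The glypican *Gpc4* measured 41.9, 41.4 and 44.1 FPKM on day 10 and 57.4, 66.0 and 52.6 FPKM on day 14. These 3 genes had all day 14 samples above all day 10 samples. *Lgr4*, a receptor for R-spondins, measured 11.6, 10.8 and 7.83 FPKM on day 10 and 5.86, 8.19 and 4.31 FPKM on day 14, with overlap.

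Of 38 tested genes of the intracellular pathway, none passed the adjusted p from limma, 1 was higher and 3 were lower at an unadjusted p under 0.05, and the median log2 fold change was −0.03. Without replicate 2 of day 14, the counts were 1 and 4. The shares over all genes tested were 5.6% and 4.4% with all samples, and 6.91% and 5.92% without replicate 2. The transcription factor *Tcf7* measured 46.0, 28.4 and 18.5 FPKM on day 10 and 7.00, 17.3 and 2.51 FPKM on day 14, without overlap (log2 fold change −2.08, limma adjusted p = 0.347). The others were *Dvl3* (log2 fold change −0.52) and *Pygo2* (−0.55), a scaffold below Frizzled and a β-catenin co-activator, both without overlap. *Nfatc1*, a calcium-regulated transcription factor, measured 25.3, 32.7 and 35.0 FPKM on day 10 and 41.8, 58.9 and 51.8 FPKM on day 14 (log2 fold change 0.71). The kinase *Camk2d* (0.43) and the β-catenin inhibitor *Ctnnbip1* (0.41) overlapped between the days.

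Of 23 tested β-catenin response genes, none passed the adjusted p from limma, 2 were higher and 5 lower at an unadjusted p under 0.05, and the median log2 fold change was −0.17. Without replicate 2 of day 14, the counts were 2 and 6. The shares over all genes tested were 5.6% and 4.4% with all samples, and 6.91% and 5.92% without replicate 2. This list shares members with the preceding lists, *Notum* and *Tcf7* among them. The BMP pseudoreceptor *Bambi* measured 62.9, 44.3 and 27.6 FPKM on day 10 and 9.32, 26.5 and 4.83 FPKM on day 14, without overlap (log2 fold change −1.99, limma adjusted p = 0.332). The Notch ligand *Jag1* (log2 fold change 0.83) and the stress-response gene *Ndrg1* (0.91) were higher in all day 14 samples than in all day 10 samples, and the growth regulator *Myc* (0.39) overlapped. In the list, 15 genes had a lower and 8 a higher mean on day 14, while 46.5% of all genes tested had a higher mean.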

How the data were processed

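ECFP+ OBs of day 10 (n = 3) and day 14 (n = 3) were profiled by RNA-seq. Single-end reads of 75 bases were aligned to mm10 by the authors with TopHat2 2.0.13, Bowtie2 2.2.3 and SAMtools 0.1.19. Values per gene, 1 file per sample, were deposited as FPKM from Cufflinks 2.2.1. The gene annotation and the handling of multi-mapping reads are not given in the sources used here. In 1 file, 25 symbols had been turned into dates and were restored by position. The deposited FPKM were transformed to log2(FPKM + 0.1), which understates fold changes of low genes, and tested with limma 3.58.1 in R 4.3.3 (eBayes with a mean-variance trend, day as the only factor) over the 19526 genes with a mean above 0.1 FPKM, which left 38 of the 44 genes. P-values are two-sided and were adjusted by the Benjamini-Hochberg method across these genes. The procedure was tested on simulated data. Nothing in the labels says whether the biological replicates were separate mice or pools, so p-values measure the spread between these samples.

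Depth was estimated from 1977 genes with 1 annotated transcript in GENCODE vM21 (mm10), assuming fragments of 225 bases, the length with the largest share of whole reads. With it, 75.3% to 80.1% of low values were within 0.1 of a whole read. Estimated reads use the longest coding transcript and are approximate. Gene coordinates are from GENCODE and promoters from RefSeq. For *Fzd1* the RefSeq start lies outside the GENCODE gene, and for *Dkk1* it lies inside it. The gene group, the gene lists and the motifs were chosen with earlier results of these data known. Values per sample are given for genes of the group with a mean of at least 1 FPKM on either day, separated days or an unadjusted p under 0.05, and for up to 3 genes per direction of each other list with the smallest p and a mean of at least 1 FPKM. *Wnt10b*, *Wnt1*, *Wnt3a*, *Fzd3*, *Axin2*, *Dkk2* and *Dkk4* were named in addition. Alternatives were another pseudocount, filter, scaling or variance model, the replicate number as a block, and leaving out each sample.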

Additional observations from a re-analysis of the deposited data

How the results depend on the processing

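Under 14 alternatives, no gene of the group had an adjusted p under 0.05 from limma, and the smallest was 0.120. Of 377 log2 fold changes of the 27 expressed genes, 368 kept their direction. The other filters, the fit without a mean-variance trend and the replicate block left each log2 fold change as it was. These settings could therefore not change a sign. Median-of-ratios scaling changed the values little, with size factors from 0.997 to 1.006. The 9 that changed sign were those of *Fzd2* with quantile normalization (−0.0086) and without replicate 1 of day 10 (−0.06), replicate 2 of day 10 (−0.24) or replicate 3 of day 14 (−0.28), of *Wnt16* without replicate 2 (0.10) or 3 (0.03) of day 10, of *Wnt7b* without replicate 3 of day 10 (−0.21) or replicate 2 of day 14 (−0.62), and of *Wnt2* without replicate 3 of day 14 (−0.052). With 1 sample left out, these spanned −0.28 to 0.35 for *Fzd2*, −0.477 to 0.10 for *Wnt16*, −0.62 to 1.20 for *Wnt7b* and −0.052 to 1.54 for *Wnt2*. *Dkk1*, *Dkk3*, *Fzd1* and *Ror1* kept an unadjusted p under 0.05 in all 14, with log2 fold changes of −2.55 to −1.47, 0.58 to 0.84, 0.51 to 0.78 and 1.10 to 1.69. *Wnt9a* lost it in 5. With 1 sample left out, between 1 and 7 genes of the group were lower and between 3 and 6 higher at an unadjusted p under 0.05. Between 4 and 10 had every day 14 sample above, and between 1 and 8 every day 14 sample below, every day 10 sample, and with fewer samples such separation is easier to reach. The highest counts lower were those without replicate 2 of day 14, and the highest counts higher those without replicate 3 of day 10. With the replicate number as a replicate block, 4 genes (*Dkk1*, *Wif1*, *Lrp4* and *Wnt4*) were lower at that p in place of 1, and 4 were higher. For the block and the fits with 1 sample left out, the matching shares over all genes were not counted. The exception is the unadjusted p without replicate 2 of day 14, given above. Whether the other counts differ from those of all genes is therefore not known. Deviations of same-numbered samples correlated with r = 0.058, −0.006 and 0.089, and 4 of the 6 samples correlated best with their own number. These values do not settle whether the samples are paired. The titles give only a replicate number, and the main fit did not treat the samples as paired. Over all genes, 3 passed an adjusted p under 0.05, and 3 to 8 did with 1 sample left out. In a setting chosen after seeing the data, with replicate 2 of day 14 left out and the filter taken over the other 5 samples, 76 did, none of them in the group. Depth limits the genes under about 0.5 FPKM.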
